A study of Mus musculus with 12 samples.

Results

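Transcripts of 9 mitochondrial enzymes were followed through mouse splenic B cells. They are Cs, Idh2, Idh3a, Idh3b, Idh3g, Ogdh, Suclg1 and Mdh2 of the tricarboxylic acid (TCA) cycle, and Dhtkd1, a relative of Ogdh that works outside the cycle. They were found by gene symbol and make up 9 of the 52330 genes that the 3 deposited count tables share. The set was chosen by measured values, namely a higher level of Idh2 and a lower level of Dhtkd1 in stimulated cells that lack Hnrnpa1 and Hnrnpa2b1. Values of that contrast are therefore given as a description with no test.

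The series holds 12 libraries of poly(A) RNA from B cells that were purified from mouse spleen by removing cells that bind CD43 beads. Wild-type (WT) cells were compared with double knockout (DKO) cells, in which both Hnrnpa1 and Hnrnpa2b1, which encode RNA-binding proteins of the splicing machinery, had been deleted by Cre-loxP recombination. Untreated cells gave 3 WT and 3 DKO libraries. Stimulated cells, kept in culture for 48 h with antibodies to IgM (10 µg/mL) and CD40 (1 µg/mL), gave 2 WT and 2 DKO libraries. The antibodies mimic antigen and the help that T cells give. Another 2 libraries are of untreated WT cells whose titles set them apart, and they are called the additional WT libraries. The Cre driver, the age of the mice and any pooling of animals were not given in the sources used here. Nor do the labels tell whether each replicate is another mouse, and the p-values thus cover the spread among these libraries, which may be technical.

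Gene counts per library ranged from 15090953 to 21731893. Levels are given as CPM, the counts of a gene per 1000000 gene counts of its library. Hnrnpa1 stood at 726 ± 12.9 CPM (SD, n = 3) in untreated WT and 125 ± 65.2 (n = 3) in untreated DKO cells, and at 1733 ± 7.10 against 245 ± 9.94 (n = 2 each) in stimulated cells. Hnrnpa2b1 stood at 1920.0 ± 123 against 447 ± 152 CPM in untreated cells and at 1833 ± 13.1 against 375 ± 63.8 in stimulated cells, so residual transcript was measured for both targeted genes. The 8 B cell markers were detected in every library. Their summed level was 3561 to 4071 CPM in untreated WT, 2859 to 3343 in untreated DKO, 6032 to 6580 in stimulated WT and 4412 to 4785 in stimulated DKO libraries. Markers of T cells (10 genes) summed to between 47.4 and 195 CPM and those of monocytes and macrophages (12 genes) to between 39.1 and 79.4 CPM over these 10 libraries. The 7 dendritic cell markers summed to 68.6 to 68.8 CPM in stimulated DKO and 40.7 to 48.8 CPM in stimulated WT libraries, without overlap and with 1 marker at 0 in each. Flt3, a receptor among them, was the 1 of 4 tested to pass, higher in DKO (0.91 ± 0.20, adjusted p = 0.0246 by edgeR). In the same comparison 2 of 8 B cell and 1 of 4 T cell markers passed, all lower in DKO. So did 1 of 5 monocyte and macrophage and 1 of 5 plasma cell markers, lower as well. Of 2 platelet markers tested, 1 passed, higher in DKO. Over all genes, 5.09% passed as higher and 6.17% as lower. Platelet and neutrophil markers also summed higher in stimulated DKO without overlap, at no more than 4.83 and 1.43 CPM. T cell markers went the other way, at 134.8 to 175 CPM in stimulated DKO and 175.8 to 195 in stimulated WT libraries. So did monocyte and macrophage markers, at 55.9 to 56.9 against 68.1 to 79.4 CPM. The part of all these markers in the values of the members was not tested. Of the 10 T cell markers, Cd3e, a receptor complex subunit, stood at no more than 0.644 CPM in any library. It thus holds little of their sum, which other markers of the list carry. Its mean was 0.411 ± 0.329 CPM in stimulated DKO and 0.241 ± 0.0995 in stimulated WT cells, the other direction from the sum, with overlap. One WT library of stimulated cells carries a column number that its labels lack, and it is called the unnumbered WT library. Of the untreated libraries, WT 2 and DKO 1 read as female from Xist and the rest of the 10 as male.

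The TCA cycle oxidises acetyl units from sugars, fats and amino acids in the mitochondrial matrix and passes the electrons on to the respiratory chain. Citrate synthase (Cs) starts it, isocitrate dehydrogenase turns isocitrate into 2-oxoglutarate, the 2-oxoglutarate dehydrogenase complex makes succinyl-CoA, succinyl-CoA ligase turns this into succinate, and malate dehydrogenase (Mdh2) closes the circle. Isocitrate is oxidised by a pair of distinct enzymes: IDH3, an NAD-dependent assembly of alpha, beta and gamma subunits (Idh3a, Idh3b, Idh3g) that drives the cycle forward, and IDH2, an NADP-dependent enzyme that yields NADPH and can also run in reverse. DHTKD1 is a paralogue of the OGDH subunit. It takes 2-oxoadipate, a late intermediate in the breakdown of lysine, hydroxylysine and tryptophan, and shares the downstream subunits DLST and DLD with OGDH. B cells activated through their antigen receptor and CD40 grow and divide, and both mitochondrial oxidation and biosynthesis from cycle intermediates are known to matter to them.

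The promoters of Idh2 and Dhtkd1 are shown first, because this pair, higher and lower in stimulated DKO than WT cells, chose the set. Both windows run from 250 bases before the transcription start to 30 bases after it, 280 bases in all, are printed 5′ to 3′ on the gene's own strand, and come from RefSeq on build GRCm38.p6, an older build than the GRCm39 of the counts. The Idh2 window is chr7:80115321-80115600 and the Dhtkd1 window is chr2:5942763-5943042, both on the minus strand. Capitals mark matches, on either strand, to 6 motifs that were searched: the E-box CACGTG, the CCAAT box, the GC box GGGCGG, the ETS motif CCGGAAG, and the NF-kB and NRF1 motifs, which are given by name only.
Idh2: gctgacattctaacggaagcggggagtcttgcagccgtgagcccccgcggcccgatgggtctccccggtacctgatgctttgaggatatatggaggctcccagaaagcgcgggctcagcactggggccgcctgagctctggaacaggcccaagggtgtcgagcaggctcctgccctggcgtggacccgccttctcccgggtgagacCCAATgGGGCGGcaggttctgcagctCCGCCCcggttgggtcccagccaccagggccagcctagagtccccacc
Dhtkd1: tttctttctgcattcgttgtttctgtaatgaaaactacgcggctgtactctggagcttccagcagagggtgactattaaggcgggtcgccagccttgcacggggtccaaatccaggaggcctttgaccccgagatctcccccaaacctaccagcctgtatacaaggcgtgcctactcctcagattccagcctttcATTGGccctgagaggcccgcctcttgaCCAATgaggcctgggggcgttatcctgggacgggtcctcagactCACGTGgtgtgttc

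The Idh2 window is 67.5% G and C and holds 1 CCAAT box and 2 GC boxes. The Dhtkd1 window is 56.1% G and C and holds 2 CCAAT boxes, 1 on each strand, and 1 E-box that begins at base 267, after the start site. Of 32851 mouse promoter windows of this length, 36.1% hold a CCAAT box, 34.7% a GC box and 6.79% an E-box. The NF-kB (1.54% of windows), NRF1 (4.41%) and ETS (8.45%) letters occur in neither. Of the 9 members, 8 had a promoter entry. These matches are descriptions of letters and say nothing of binding.

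Dhtkd1 was close to silent in untreated cells and was measured at a clear level only in stimulated WT cells. It (ENSMUSG00000025815, GRCm39 chr2:5900926-5947603, minus strand) had 13, 11 and 6 counts in the 3 untreated WT libraries, which is 0.677, 0.674 and 0.311 CPM. The 3 untreated DKO libraries had 4, 11 and 5 counts, or 0.253, 0.681 and 0.325 CPM. The untreated groups overlapped. In stimulated WT cells the 2 libraries had 120 and 128 counts, or 6.23 CPM (95% exact Poisson interval 5.17 to 7.45) and 7.28 CPM (6.08 to 8.66). The 2 stimulated DKO libraries had 24 and 22 counts, or 1.10 CPM (0.708 to 1.64) and 1.31 CPM (0.821 to 1.98). These intervals cover counting error only. Both stimulated DKO libraries stood above the 6 numbered untreated libraries and below both stimulated WT libraries, while additional WT library 2 (1.106 CPM) stood level with stimulated DKO library 1 (1.104 CPM). The fitted change of DKO over WT in stimulated cells was -2.39 ± 0.32 on the log2 scale (± SE throughout), or 0.191 of the WT level. It lay between -2.47 and -2.29 when each library was left out.

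After Dhtkd1, Idh2 had the largest fitted difference between stimulated DKO and WT cells among the 9 members, and it was higher. Its 3 untreated WT libraries stood at 37.2, 32.9 and 36.6 CPM and the 3 untreated DKO libraries at 32.4, 33.5 and 31.2 CPM (ENSMUSG00000030541, GRCm39 chr7:79744594-79765140, minus strand). The 2 stimulated WT libraries stood at 28.03 and 27.94 CPM, the lowest of the numbered groups, and the 2 stimulated DKO libraries at 53.7 and 52.3 CPM, above every other library of the series. The stimulated means were 27.99 ± 0.0654 CPM in WT and 53.0 ± 0.964 in DKO cells (SD, n = 2 each). The fitted change was 1.02 ± 0.16, a 2.03-fold higher level in DKO. It ranged from 0.97 to 1.10 when each library was left out.

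**Figure D1:**
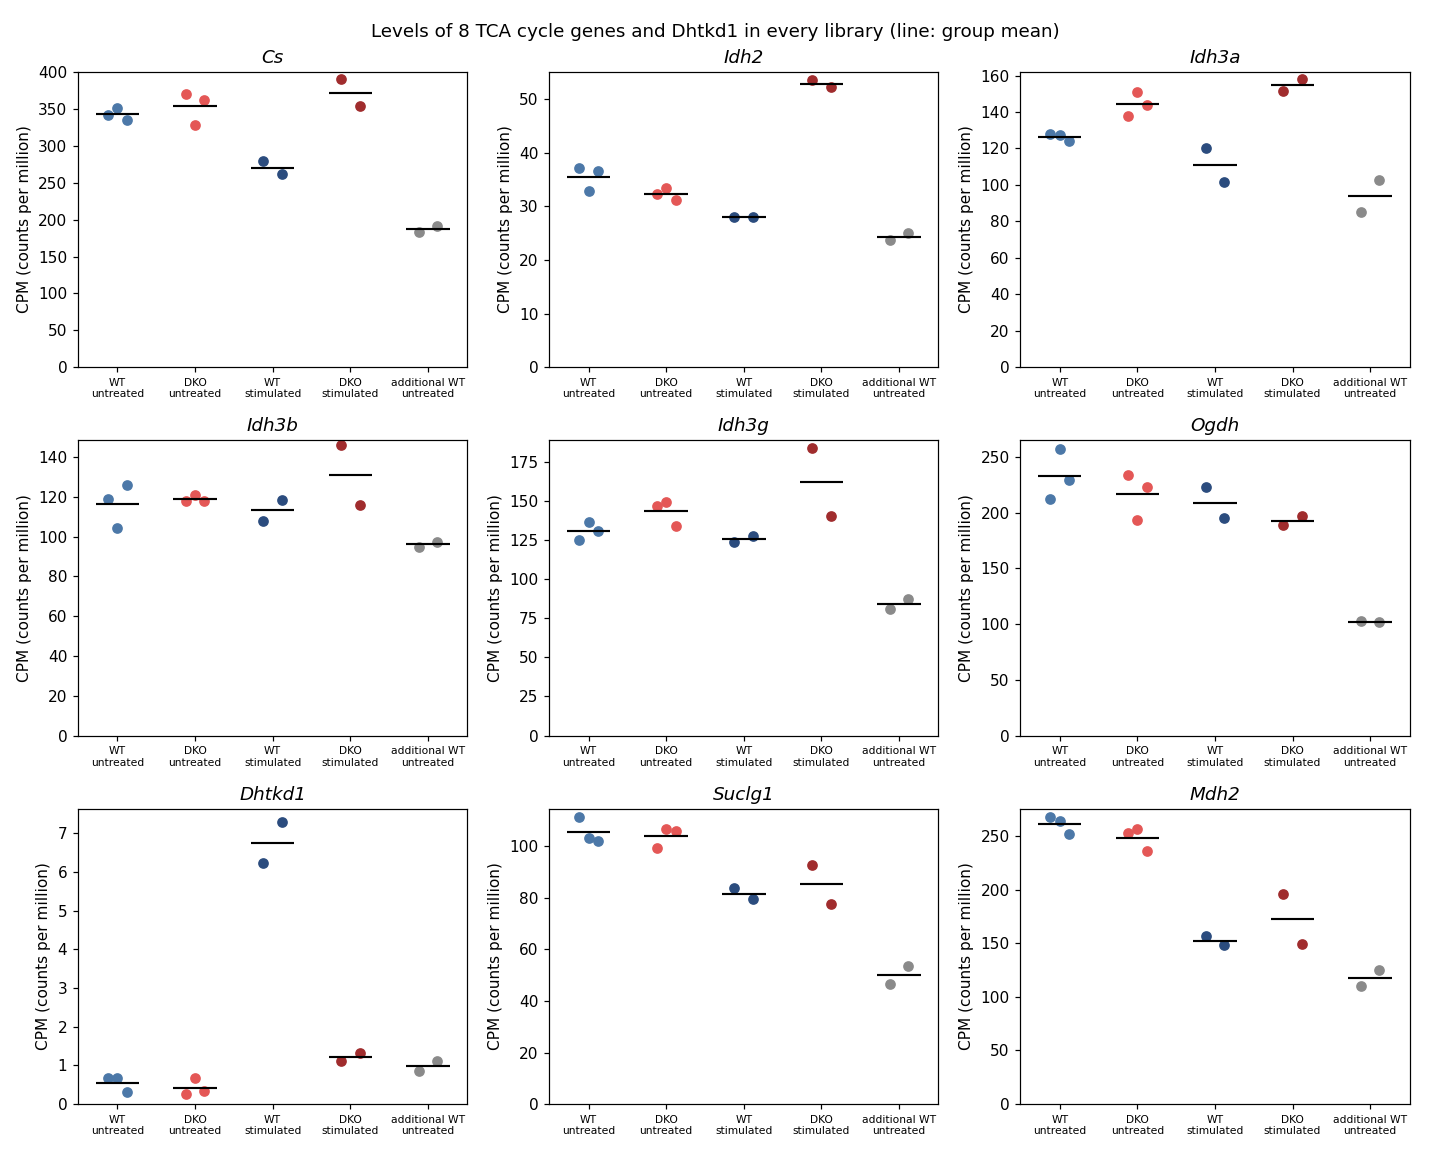
Level of each of the 9 members in each of the 12 libraries, in CPM, with 1 point per library and a line at the group mean. Dhtkd1 is high only in stimulated WT cells (6.23 and 7.28 CPM), while Idh2 is highest in stimulated DKO cells (53.7 and 52.3 CPM).

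The subunits of IDH3, the NAD-dependent enzyme, differed in the same direction as Idh2 in stimulated cells, and by less. Idh3a, the catalytic subunit (ENSMUSG00000032279, GRCm39 chr9:54493618-54511945, plus strand), stood at 120.4 and 102 CPM in the stimulated WT and at 152 and 158 CPM in the stimulated DKO libraries. Idh3g, a regulatory subunit (ENSMUSG00000002010, GRCm39 chrX:72822569-72830503, minus strand), stood at 124 and 128 CPM in WT and at 184 and 140.4 CPM in DKO. Idh3b, the beta subunit (ENSMUSG00000027406, GRCm39 chr2:130121229-130126467, minus strand), stood at 108 and 118 CPM in WT and at 146 and 116 CPM in DKO. The groups lay apart for Idh3a and Idh3g and overlapped for Idh3b. The fitted changes were 0.58 ± 0.18 for Idh3a, 0.47 ± 0.19 for Idh3g and 0.31 ± 0.19 for Idh3b. Those of Idh3b and Idh3g rest in large part on DKO library 1: without it they were 0.11 and 0.23, and without DKO library 2 they were 0.53 and 0.71.

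Of the enzymes around this step, Cs separated the stimulated genotypes, while Mdh2, Suclg1 and Ogdh did not. Cs (ENSMUSG00000005683, GRCm39 chr10:128173603-128198348, plus strand) stood at 279.8 and 262 CPM in WT and at 390.4 and 354 CPM in DKO, without overlap, a fitted change of 0.56 ± 0.18. Mdh2 (ENSMUSG00000019179, GRCm39 chr5:135807334-135819252, plus strand) stood at 156 and 148 CPM in WT and at 196 and 149.5 CPM in DKO, a change of 0.28 ± 0.20. Both Mdh2 groups overlapped. Suclg1, the alpha subunit of succinyl-CoA ligase (ENSMUSG00000052738, GRCm39 chr6:73225365-73253894, plus strand), stood at 83.9 and 79.4 CPM in WT and at 92.8 and 77.6 CPM in DKO, a change of 0.16 ± 0.18. Ogdh, the paralogue of Dhtkd1 (ENSMUSG00000020456, GRCm39 chr11:6241633-6306642, plus strand), stood at 223 and 195 CPM in WT and at 189 and 197 CPM in DKO, a change of -0.02 ± 0.18. Neither Suclg1 nor Ogdh separated the groups. Over all 14430 genes tested, the groups of stimulated libraries did not overlap for 62.7% (24.4% higher and 38.3% lower in DKO), and 11.3% passed the threshold of edgeR (5.09% higher and 6.17% lower). Of the members, 4 lay higher (Cs, Idh2, Idh3a, Idh3g) and 1 lower (Dhtkd1) without overlap. Since this contrast chose the members, nothing is read from that count.

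**Figure D2:**
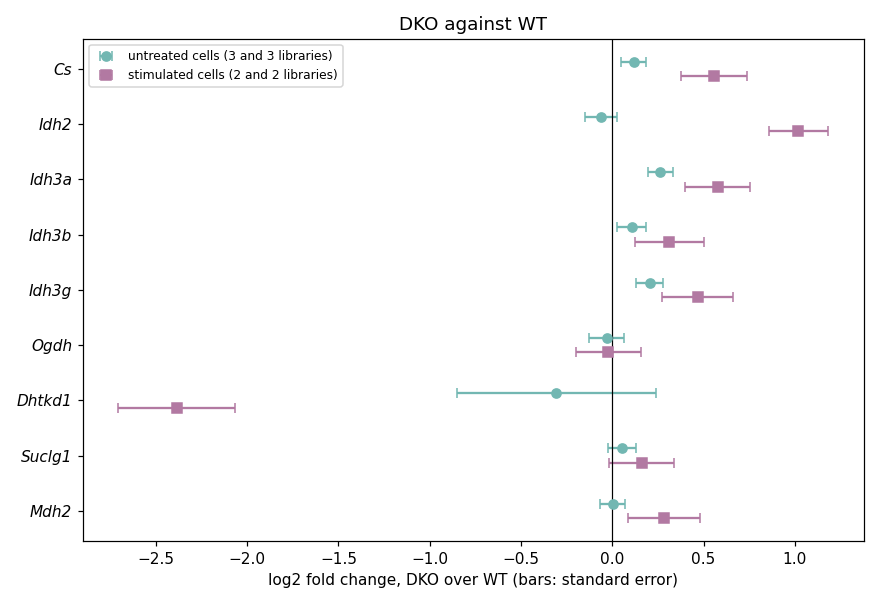
Log2 fold change of DKO over WT for each member in untreated (n = 3 against 3) and stimulated cells (n = 2 against 2), with bars for the standard error. In untreated cells Idh3a lies at 0.26, and in stimulated cells Idh2 lies at 1.02 and Dhtkd1 at -2.39, the values that chose the members.

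Untreated cells give a DKO comparison that the choice of members did not use. Of the 9 members, 1 passed the threshold (adjusted p under 0.05 over 13561 genes), against 19.5% of all genes tested (8.81% higher and 10.6% lower in DKO). That member was Idh3a. Its untreated WT libraries stood at 128, 127 and 124 CPM and the DKO libraries at 138, 151 and 144 CPM, so every DKO library was higher. The change was 0.26 ± 0.07 (95% interval 0.11 to 0.42), a 1.20-fold higher level with an adjusted p of 0.0308 by edgeR's quasi-likelihood test. This call is a narrow one. The edgeR adjusted p rose to 0.0607 without WT library 1, 0.131 without WT library 3, 0.0832 without DKO library 2 and 0.0770 without DKO library 3.

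Neither of the chosen pair passed in untreated cells. Idh2 changed by -0.06 ± 0.09 (95% interval -0.26 to 0.14, adjusted p = 0.647 by edgeR). Dhtkd1 changed by -0.31 ± 0.54 with an interval from -1.54 to 0.92 (adjusted p = 0.729 by edgeR), so at 4 to 13 counts per library neither a gap of 1 log2 unit nor its absence could be detected. Whether the effect of the deletions differs between untreated and stimulated cells was not tested, because the stimulated contrast chose both genes.

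The 6 remaining members stayed within a narrow range in untreated cells. Idh3g stood at 125, 137 and 131 CPM in WT and at 147, 149.7 and 134 CPM in DKO, a change of 0.20 ± 0.08 (95% interval 0.03 to 0.37) with an adjusted p of 0.0892 by edgeR. Cs stood at 343, 351 and 336 CPM in WT and at 371, 329 and 362 CPM in DKO, a change of 0.12 ± 0.07 (adjusted p = 0.267 by edgeR). Idh3b changed by 0.11 ± 0.08, Suclg1 by 0.05 ± 0.07, Mdh2 by 0.00 ± 0.07 and Ogdh by -0.03 ± 0.10. The edgeR adjusted p of these 4 ranged from 0.389 for Idh3b to 0.992 for Mdh2.

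Stimulated cells were then compared with untreated cells of the same genotype. Stimulation, 48 h of culture and the separately deposited tables of the groups cannot be told apart. Both comparisons share their stimulated libraries with the contrast that chose the members, so Idh2 and Dhtkd1 are described only and the 7 remaining members were tested. In WT cells 3 of these 7 passed, all lower after stimulation, against 40.6% of 15006 genes (17.8% higher and 22.8% lower). In DKO cells 1 of 7 passed, also lower, against 33.0% (16.2% higher and 16.8% lower).

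Among the 7 members tested, Mdh2 had the lowest adjusted p in both genotypes. It stood at 267, 264 and 252 CPM in untreated WT libraries and at 156 and 148 CPM in the stimulated ones. The fitted change was -0.77 ± 0.14 (95% interval -1.08 to -0.46, 0.586 of the untreated level, adjusted p = 0.00108 by edgeR), and it passed without each library in turn. In DKO cells Mdh2 stood at 253, 256 and 236 CPM before and at 196 and 149.5 CPM after stimulation. That change was -0.45 ± 0.14 (0.733 of the untreated level, adjusted p = 0.0283 by edgeR). The DKO call rests on single libraries: edgeR's adjusted p was 0.0625 without untreated DKO library 1, 0.0802 without untreated DKO library 2 and 0.165 without stimulated DKO library 2, where the change was -0.21. Without stimulated DKO library 1 the change was -0.73.

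Cs and Suclg1 were lower in stimulated WT cells, with calls that depended on single libraries and, for Cs, on the scaling and filter. Cs went from the 336 to 351 CPM given above to 279.8 and 262 CPM, a change of -0.33 ± 0.12 (adjusted p = 0.0414 by edgeR). Suclg1 went from 111, 103 and 102 CPM to 83.9 and 79.4 CPM, a change of -0.36 ± 0.13 (adjusted p = 0.0350 by edgeR). No untreated library of either gene reached down to a stimulated one. Both calls were lost on leaving out each one of the 5 WT libraries, and that of Cs also on leaving out untreated DKO library 3. Over these losses the edgeR adjusted p of Cs ran from 0.0589 (without untreated DKO library 3) to 0.254 (without the unnumbered WT library), with 0.0953, 0.0927 and 0.0728 without untreated WT libraries 1, 2 and 3 and 0.0684 without stimulated WT library 1. That of Suclg1 was 0.114, 0.0616 and 0.0591 without untreated WT libraries 1, 2 and 3, and 0.0760 and 0.224 without stimulated WT library 1 and the unnumbered one. The call of Cs was also lost with RLE scaling (edgeR adjusted p = 0.0514) and with no filter on low counts (0.0545). In DKO cells neither passed: Cs changed by 0.14 ± 0.12 (adjusted p = 0.386 by edgeR) and Suclg1 by -0.22 ± 0.12 (0.206).

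The IDH3 subunits and Ogdh passed in neither genotype. In WT cells Idh3a changed by -0.18 ± 0.11, Idh3b by -0.03 ± 0.13, Idh3g by -0.05 ± 0.14 and Ogdh by -0.15 ± 0.13. In DKO cells the changes were 0.17 ± 0.11, 0.21 ± 0.13, 0.25 ± 0.14 and -0.10 ± 0.13 in the same order. The directions of Idh3b and Idh3g flipped under some alternatives, which are given with the dependence on processing. As a description, Idh2 changed by -0.34 ± 0.11 in WT and by 0.78 ± 0.11 in DKO cells. Dhtkd1 changed by 3.60 ± 0.38 in WT, a 12.2-fold higher level, and by 1.56 ± 0.45 in DKO cells, a 2.95-fold higher level.

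**Figure D3:**
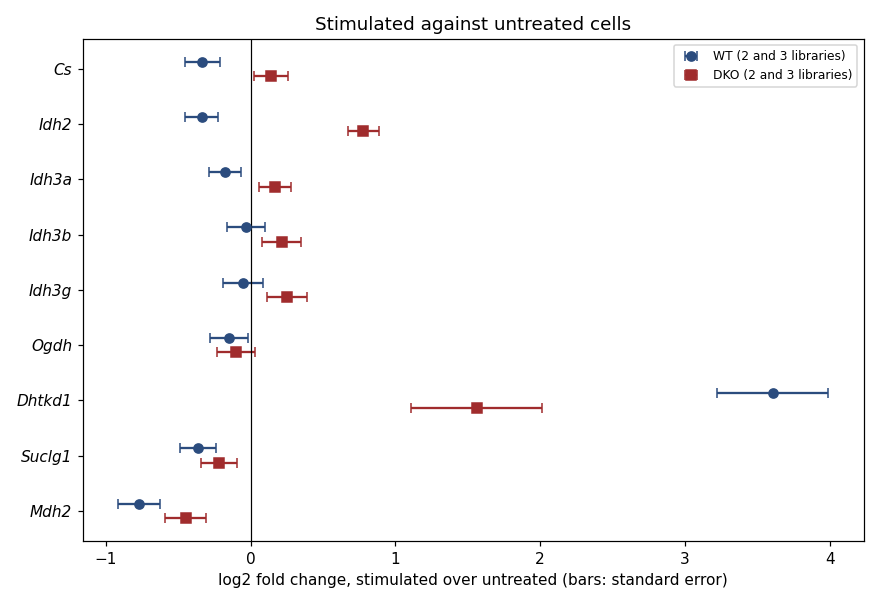
Log2 fold change of stimulated over untreated cells for each member in WT (2 against 3 libraries) and DKO cells (2 against 3), with bars for the standard error. Mdh2 is lower in both (-0.77 and -0.45), Idh2 lies at -0.34 in WT and 0.78 in DKO cells, and Dhtkd1 at 3.60 and 1.56.

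Levels were also set side by side per kilobase of exonic gene length, which allows genes to be compared. In untreated WT cells the order was Mdh2 (73.2 CPM per kb), Cs (59.4), Idh3g (48.5), Ogdh (42.7), Idh3b (34.0), Idh3a (24.9), Suclg1 (22.9), Idh2 (13.7) and Dhtkd1 (0.0875), and untreated DKO cells had the same order. The ranges of Idh3g and Ogdh overlapped in WT. In stimulated WT cells Cs (46.9) and Idh3g (46.6), whose ranges overlapped, stood above Mdh2 (42.7). In stimulated DKO cells Cs (64.4) and Idh3g (60.0) stood on top, Mdh2 followed at 48.5, and the ranges of neighbours overlapped down to Ogdh (35.3). Idh2 stood at 10.8 CPM per kb in stimulated WT, below Suclg1 at 17.7, and at 20.5 in stimulated DKO, above Suclg1 at 18.5.

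**Figure D4:**
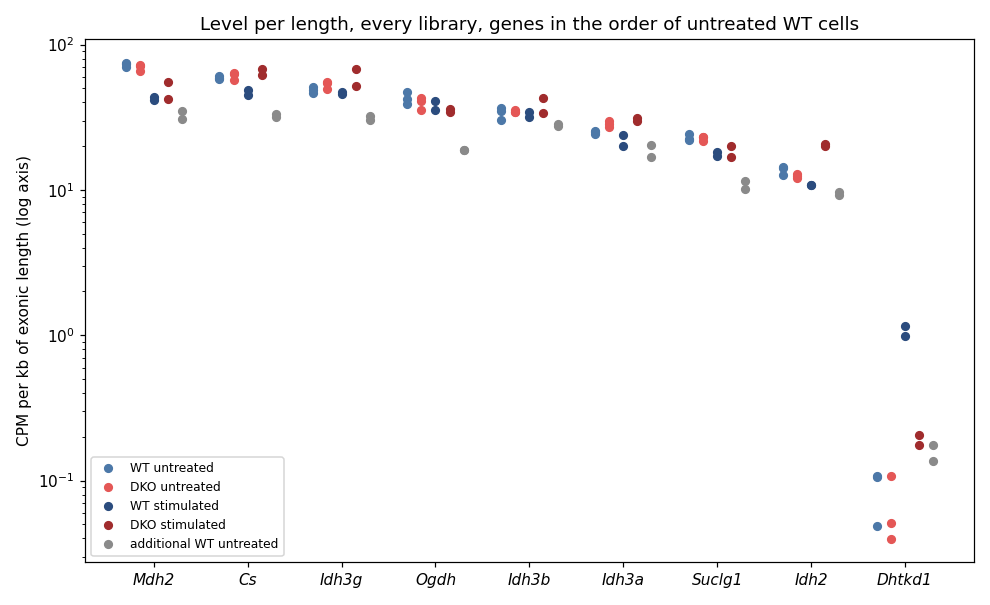
Level per kilobase of exonic length of each member on a log axis, with 1 point for each of the 12 libraries and genes in the order of untreated WT cells. Mdh2 leads in untreated cells (mean 73.2 CPM per kb in WT), Cs has the highest mean in stimulated cells (46.9 in WT and 64.4 in DKO), and Dhtkd1 lies lowest in every group.

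Ratios within a library put both isocitrate dehydrogenases on 1 scale. The level of Idh2 per kilobase over the mean of the 3 IDH3 subunits was 0.406, 0.359 and 0.387 in untreated WT and 0.324, 0.322 and 0.321 in untreated DKO libraries. It was 0.321 and 0.318 in stimulated WT and 0.443 and 0.517 in stimulated DKO libraries, the highest of the 12. Ogdh was above Dhtkd1 in every library. The level of Ogdh per kilobase was 41.6 and 31.1 times that of Dhtkd1 in stimulated WT and 198 and 174 times in stimulated DKO libraries. The stimulated ratios restate the levels that chose the pair. In untreated cells the ratio of Idh2 ran the other way, lower in each DKO library than in each WT library, which was not tested.

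The subunits that OGDH and DHTKD1 share were measured beside them. Dlst, the succinyltransferase core subunit, stood at 178 ± 9.23 CPM in untreated WT, 161 ± 6.85 in untreated DKO (n = 3 each), 150.5 ± 12.5 in stimulated WT and 149.2 ± 4.32 in stimulated DKO cells (n = 2 each). It passed in none of the 4 comparisons, with a change of 0.08 ± 0.17 in stimulated DKO over WT cells. Dld, the dihydrolipoamide dehydrogenase that several complexes share, was higher in untreated DKO cells (0.31 ± 0.07, adjusted p = 0.0152 by edgeR), a call lost without WT library 3 (0.0755). Ogdhl, a second paralogue, was at most at 0.259 CPM in any library.

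Of the lysine and tryptophan pathway that feeds DHTKD1, most genes were not measured. Of 9 genes listed, 3 had enough counts to be tested (Gcdh, Aldh7a1 and Hykk). Aass, which starts lysine breakdown, and Aadat, which makes 2-oxoadipate, had 0 counts in all 10 libraries of the 4 numbered groups. A count of 0 allows between 0.138 and 0.195 CPM in these libraries, taking 3 counts as the limit. Gcdh, the enzyme that follows DHTKD1, stood at 29.7 ± 1.99 CPM in untreated WT (n = 3) and 26.7 ± 2.53 in stimulated DKO cells (n = 2), and it passed in no comparison. Hykk, a hydroxylysine kinase, was higher in stimulated than in untreated WT cells (1.83 ± 0.58, adjusted p = 0.0236 by edgeR), a call lost without untreated WT library 3 (0.0599) or the unnumbered WT library (0.211).

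The 10 other TCA cycle genes listed were all tested. Over all genes, 11.3% passed in edgeR in stimulated DKO over WT cells. In stimulated DKO over WT cells 0 passed in edgeR and 1 in DESeq2, while 3 had an unadjusted edgeR p under 0.05, and the median change was 0.20 against -0.03 over all genes. The edgeR count was 2 without DKO library 1 and 4 without DKO library 2. Of these, Sdhb, the iron-sulfur subunit of succinate dehydrogenase, had the lowest adjusted p (0.66 ± 0.20, 0.0606 by edgeR). In WT cells 6 of 10 fell with stimulation and none rose, with a median of -0.36 against -0.02 over all genes, of which 40.6% were called and 22.8% were lower. Suclg2, the GDP-forming partner of Suclg1, changed by -0.47 ± 0.10 (adjusted p = 0.00298 by edgeR) and kept its call without each library. Sdhb changed by -0.68 ± 0.15 (adjusted p = 0.00386 by edgeR), with 0.0563 without the unnumbered WT library. The others that fell include Sdhd and Dld, whose calls were lost in 4 and 2 of 10 fits with a library left out. For Sdhd the edgeR adjusted p was 0.0621 without untreated WT library 1 and 0.0535 without untreated WT library 3. For Dld it was 0.0537 without untreated WT library 1. The call of Sdhd was lost as well without stimulated WT library 1, and both calls without the unnumbered WT library. Without that library the count of 6 became 1, and without untreated WT library 1 it became 3. In DKO cells 2 of 10 fell, against 16.8% of all genes. These were Sdhc and Dld, with adjusted p of 0.0227 and 0.0395 by edgeR. Both were lost without untreated DKO library 2 (0.0651 and 0.124), untreated DKO library 3 (0.0511 and 0.0512) or stimulated DKO library 2 (0.126 and 0.0634), and Dld also without untreated WT library 3 (0.0547), untreated DKO library 1 (0.0975) or stimulated DKO library 1 (0.0718).

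Among 13 genes of pyruvate entry, 12 were tested. Over all genes, 8.81% were called higher and 10.6% lower in untreated DKO than WT cells, and 5.09% and 6.17% in stimulated cells. Pdhx, which anchors DLD in the pyruvate dehydrogenase complex, was higher in DKO cells both untreated (0.79 ± 0.09, adjusted p = 0.00195 by edgeR) and stimulated (1.02 ± 0.17, adjusted p = 0.00978 by edgeR). The untreated call was kept without each library, and the stimulated one was lost without the unnumbered WT library (0.141). In untreated cells 3 of 12 were higher (Pdhx, Pdha1, Dlat) and 1 lower (Pdk2), a count of 4 that became 1 without WT library 3 and 2 without DKO library 3. It was 3 without WT library 1, WT library 2 or DKO library 1. The Dlat call was lost in 5 of the 6 fits with a library left out (edgeR adjusted p up to 0.138). In stimulated cells Pdhx alone passed, and the count was 3 without DKO library 1 and 7 without DKO library 2. With stimulation Mpc1, a subunit of the mitochondrial pyruvate carrier, rose by 1.67 ± 0.15 in WT and by 2.13 ± 0.16 in DKO cells, with edgeR adjusted p of 6.02e-06 and 8.83e-07. Its partner Mpc2 was lower, with a change of -1.14 in WT and -0.86 in DKO cells (adjusted p = 0.000288 and 0.00236 by edgeR).

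Of 11 genes that make NADPH or clear 2-hydroxyglutarate, 8 were tested. In stimulated DKO over WT cells 0 passed in edgeR, against 11.3% of all genes, and 0 in DESeq2. An unadjusted edgeR p under 0.05 was found for 2. The edgeR count was 2 without DKO library 1 and 1 without DKO library 2. Idh1, the cytosolic counterpart of Idh2, stood at 17.0 ± 3.10 CPM in untreated WT, 17.1 ± 2.86 in untreated DKO, 37.7 ± 3.40 in stimulated WT and 28.4 ± 3.25 in stimulated DKO cells. It rose with stimulation in WT (1.15 ± 0.18, adjusted p = 0.000319 by edgeR) and in DKO cells (0.81 ± 0.18, adjusted p = 0.00470 by edgeR). In stimulated DKO over WT cells it changed by -0.30 ± 0.18 (adjusted p = 0.284 by edgeR). D2hgdh, which oxidises D-2-hydroxyglutarate back to 2-oxoglutarate, changed by -0.73 ± 0.21 there (adjusted p = 0.0520 by edgeR). Mthfd2, a mitochondrial folate enzyme, was lower after stimulation, with a log2 change of -1.53 in WT and -1.66 in DKO cells (adjusted p = 1.05e-06 and 5.09e-07 by edgeR).

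All 12 genes of glutamine, aspartate and citrate use were tested. Over all genes, 10.6% were called lower in untreated and 6.17% in stimulated DKO than WT cells. Gpt2, the mitochondrial alanine transaminase that makes 2-oxoglutarate from glutamate, was lower in DKO cells both untreated (-0.70 ± 0.10, adjusted p = 0.00401 by edgeR) and stimulated (-1.26 ± 0.25, adjusted p = 0.0169 by edgeR, and 0.101 without the unnumbered WT library). It was the only gene of this list to pass in stimulated cells, where the count was 4 without DKO library 1 and 8 without DKO library 2. In untreated cells 3 passed, all lower (Gpt2, Pcx, Aco1), a count that became 1 without WT library 1, WT library 3, DKO library 2 or DKO library 3, and 2 without WT library 2 or DKO library 1. With stimulation, Gpt2 changed by -2.21 on the log2 scale in WT and by -2.74 in DKO cells, and Pck2, mitochondrial phosphoenolpyruvate carboxykinase, by -2.28 and -3.04. Each of these 4 had an edgeR adjusted p of 1.76e-06 (Pck2, WT) or lower.

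General mitochondrial genes were measured beside the members. Over all genes, 8.81% were called higher in untreated and 5.09% in stimulated DKO than WT cells. With stimulation, 22.8% of all genes were called lower and 17.8% higher in WT cells, and 16.8% and 16.2% in DKO cells. Of 12 listed, 4 were higher in untreated DKO cells and none lower, and 2 were higher in stimulated DKO cells (6 by DESeq2), with a median change there of 0.50 against -0.03 over all genes. The untreated count of 4 became 1 without each library other than WT library 2, where it was 2. The stimulated count of 2 became 0 without either WT library, 6 without DKO library 1 and 10 without DKO library 2. Tomm20, an import receptor of the outer membrane, was higher in DKO cells both untreated (0.61 ± 0.10, adjusted p = 0.00498 by edgeR) and stimulated (0.69 ± 0.18, adjusted p = 0.0403 by edgeR, with 0.298 without stimulated WT library 1 and 0.426 without the unnumbered one). In WT cells 7 of the 12 fell and 1 rose with stimulation (8 calls, a count that became 4 without the unnumbered WT library and 5 without untreated WT library 3 or stimulated WT library 1), and in DKO cells 2 fell and 1 rose (3 calls, and 5 without stimulated DKO library 1). Hspd1, a matrix chaperonin, was lower after stimulation, by -0.96 in WT and -0.48 in DKO cells on the log2 scale (adjusted p = 2.53e-05 and 0.00371 by edgeR). The part of these shifts in the values of the members was not tested. In bulk RNA, a lower level per cell and fewer cells that carry the transcript cannot be told apart.

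The genes next to the chosen pair did not pass in stimulated DKO over WT cells. Beside Dhtkd1, Sec61a2, at a distance of 683 bases, changed by -0.36 ± 0.20 (adjusted p = 0.260 by edgeR) and Upf2 by -0.59 ± 0.22 (adjusted p = 0.115 by edgeR). Beside Idh2, Zfp710, at a distance of 673 bases, changed by -0.55 ± 0.17 (adjusted p = 0.0645 by edgeR) and Sema4b by 0.55 ± 0.19 (adjusted p = 0.0847 by edgeR). Idh3b overlaps its neighbour Nop56, which lies on the opposite strand, by 5 bases at their 3′ ends. Nop56, a nucleolar protein gene, stood at 321 ± 53.2 CPM in stimulated WT and 642 ± 50.0 in stimulated DKO cells (n = 2 each; adjusted p = 0.0145 by edgeR). How the counting treated strand was not stated in the sources, and counts from this overlap cannot be assigned to either gene.

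Over the 10 libraries of the numbered groups, the genes whose log2(CPM + 1) followed each of the pair most closely were ranked by Pearson's r. The points share libraries and group means, so r is a description. Of 9394 genes ranked for Dhtkd1, Myo1f led (r = 0.977), at 4.82 CPM in untreated WT, 2.70 in untreated DKO, 35.3 in stimulated WT and 6.47 in stimulated DKO cells. Fbxo33, Tbc1d14, Mccc2 and Rap1gds1 followed, the last with 0.973. For Idh2, the genes with a high r included Ncs1 (0.919), Col27a1 (0.911), Ccng1 (0.897) and Myo1g (0.891). Between Idh2 and Dhtkd1 r was -0.33.

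In the additional WT libraries the TCA cycle members were lower than in the numbered untreated WT libraries. The additional libraries are in a separate table with coordinates of an older build. A difference of table or build cannot be told apart from a difference between the cells. Cs stood at 183 and 191 CPM, Idh2 at 23.7 and 24.9 CPM, Ogdh at 102.4 and 102.1 CPM and Mdh2 at 109.7 and 125 CPM. All 8 members other than Dhtkd1 lay below every numbered library, at between 43.9% (Ogdh) and 82.6% (Idh3b) of their mean. Over all genes, 38.5% lay lower without overlap and 33.4% higher. Dhtkd1 lay higher, at 0.861 and 1.11 CPM. In these libraries the 12 monocyte and macrophage markers summed to 199 and 249 CPM, above the 68.0 to 77.8 CPM of the numbered untreated WT libraries, and their part in the lower values was not tested.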

How the data were processed

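Raw counts per Ensembl gene in 3 deposited tables, with exonic gene lengths beside them, were the starting point. Per the submitters' processing notes the authors made these counts with FastQC 0.10.1, cutadapt 1.9.1, HISAT2 2.2.1 on GRCm39 and HTSeq 0.6.1. Strand setting and annotation release were not given in the sources used here. The table with the additional WT libraries gives coordinates of an older build. The tables hold 55359, 56691 and 55401 genes, of which the numbered groups share 55349, and 12 columns of FPKM were not used.

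Tests on counts used edgeR 4.0.16 under R 4.3.3, namely the two-sided quasi-likelihood test with TMM scaling, the filterByExpr defaults (count 10, total 15), Benjamini-Hochberg adjustment over all genes tested and a threshold of 0.05. DKO was set against WT in a fit of the 6 untreated and another of the 4 stimulated libraries, and stimulated against untreated in 1 fit over 10 libraries with 4 group means. The standard error is the size of a log2 change divided by the square root of its F. CPM were divided by the plain total, so their ratios differ slightly from the TMM-scaled changes. All 9 members passed the filter in every fit. The text names all members, called genes of 7 pathway lists (up to 5 by smallest p per list and comparison) and the 5 genes most like Idh2 and Dhtkd1 among those with a mean of at least 5 CPM. Some genes that this rule names are not reported here. Other genes (neighbours, partners, and list genes given where they did not pass) were named after their values were seen. Members and lists were chosen with earlier results of these data known.

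Same-numbered untreated WT and DKO libraries did not deviate together (r = -0.38, -0.38 and 0.16), so the numbers were not taken as pairs. The alternatives tried were RLE scaling, DESeq2 1.42.0, dropping the filter, a stricter filter (1 CPM or more throughout a group), each library left out, the replicate block, a single fit, the additional WT libraries as WT and a sex term. Fits of the male libraries alone were added after seeing the data. On simulated counts with 200 genes changed by 1 log2 unit, the untreated fit of 13590 genes recovered 97.5%. The fit of WT stimulation, on 14452 genes, recovered 94%. The simulation gave all genes the same spread, changed only genes with a mean above 1 CPM and held no difference of sex. The fit of stimulated DKO against WT was not simulated. These shares check the fitting procedure and are not the power of the real data.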

Additional observations from a re-analysis of the deposited data

Results flagged for a closer look

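Idh2 and Idh3a were flagged because their stimulated libraries lay below the untreated ones in WT and above them in DKO cells. The share of all genes that do so is not given here, so nothing is read from this pattern. Idh2 changed by -0.34 (log2) in WT cells, with both stimulated libraries below all 3 untreated ones, and by 0.78 in DKO cells, with both above. Idh3a changed by -0.18 in WT cells and by 0.17 in DKO cells, but it passed the test in neither (adjusted p = 0.222 and 0.270 by edgeR). Its gap in DKO cells was narrow, with 151.6 CPM in stimulated library 1 against 151.2 CPM in untreated library 2. These differences between genotypes were not tested, since the stimulated contrast chose the members.

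Dhtkd1 was measured at a mean of 0.984 CPM in the additional WT libraries (13 and 18 counts), which enter none of the tests of the report, above the 0.311 to 0.677 CPM of the numbered untreated WT libraries. The exact Poisson intervals of these libraries overlap (0.459 to 1.47 CPM for additional library 1 against 0.361 to 1.16 CPM for numbered library 1).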

How the results depend on the processing

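In stimulated cells Idh2 was higher in DKO than WT in each alternative fitted there. The change was 1.04 with RLE scaling, 1.04 with DESeq2, 1.07 in the single fit and 0.97 to 1.10 with each library left out. Dhtkd1 ranged from -2.47 to -2.29 with each library left out. These fits reuse the libraries that chose the pair, so the steadiness is a description and no support. In untreated cells the 1 member called (Idh3a) became 0 with the replicate block (edgeR adjusted p = 0.106), 0 in the single fit (0.0884), 0 with the additional WT libraries as WT (0.168), 0 or 1 with each library left out, and 2 with a term for sex, which added Idh3g (0.0381). The 3 members called in stimulated over untreated WT cells became 1 (Mdh2) with the replicate block, 1 with male libraries only, and 1 to 3 with each library left out. The 1 called in DKO cells (Mdh2) became 0 with male libraries only and 0 or 1 with each untreated library left out. Which members passed there also changed: without stimulated DKO library 2, Mdh2 did not pass while other members did.

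Members that failed the test changed sign as follows. In untreated DKO over WT, Idh2 was 0.12 and Ogdh 0.33 with the additional WT libraries as WT, Dhtkd1 was 0.12 with male libraries only, and Mdh2 was -0.0036 with no filter and -0.0014 with the strict filter. With each library left out Ogdh ranged from -0.0958 to 0.0457 and Mdh2 from -0.0356 to 0.0411. In stimulated over untreated WT cells Idh3b was 7e-04 with RLE scaling, 6e-04 with DESeq2 and -0.0793 to 0.0418 with each library left out, and Idh3g was 0.0068 with male libraries only and -0.0590 to 0.0071 with each library left out. In DKO cells Idh3b ranged from -0.0293 to 0.423 and Idh3g from -0.0251 to 0.487 with each library left out. Aco1, which is no member but a list gene called lower in untreated DKO cells, also changed sign, to 0.0792 with the additional WT libraries as WT.

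Counts over all genes moved too. In untreated cells 2638 calls became 786 with the replicate block, 319 with the additional WT libraries as WT, 4392 with a term for sex and 923 to 2779 with each library left out. In stimulated cells 1625 became 2847 with no filter, 3429 in the single fit and 576 to 5977 with each library left out. In stimulated over untreated WT cells 6097 became 2862 with the replicate block and 3557 to 7031 with each library left out. The causes were not tested. Dhtkd1 had no value in untreated cells under the strict filter, and the stimulated groups share only number 1, so no block was fitted there. With 2 libraries per stimulated group, a fit without 1 of them takes the lone library to vary like the rest. Depth limits Dhtkd1 most, at 4 to 13 counts per untreated library.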
